A study of Homo sapiens with 6 samples.

Results

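The genes described here are 36 nuclear genes for protein import into mitochondria, for mitochondrial chaperones and for mitochondrial proteases. They were taken by name from a list and make up 36 of the 13002 genes with values. The list was chosen with earlier results of these data known. All 36 had an RPKM (reads scaled to gene length and library depth) in all 6 libraries and all passed the filter on low values. They were measured by RNA sequencing in OCI-AML2, an established acute myeloid leukaemia cell line that the labels describe as an engineered leukemic stem cell line. There were 3 groups of 2 libraries, lettered A and B. The first carried TAZ shRNA2 and the second TAZ shRNA1, both short hairpin RNAs against TAZ, and the third carried a control hairpin, called scramble in the labels and GFP in the tables. In all 3 groups the hairpin came by lentivirus and the cells were then selected for 3 days in puromycin at 2.0 µg/ml, so none was an untouched line. The labels do not say whether A and B were separate cultures, so p-values measure only how far these libraries differ, and that spread may be technical. TAZ encodes tafazzin, which remodels cardiolipin, the lipid of the inner mitochondrial membrane, and each hairpin was set against the control to ask which transcripts differ when TAZ is low.

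Nearly all mitochondrial proteins are made in the cytosol and carried in. The TOM complex of the outer membrane receives them, the small TIM chaperones escort hydrophobic ones across the space between the membranes, and the TIM22 and TIM23 translocases insert them into the inner membrane or thread them through it. A motor built on the chaperone mortalin (HSPA9) pulls precursors into the matrix, a peptidase removes their targeting sequences, chaperonins fold them, and proteases such as LONP1 and ClpP degrade those that misfold. Cardiolipin is known, mainly from yeast, to stabilise the TOM and TIM23 complexes. Leukaemia cells are known to depend on several of these proteases and chaperones.

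Depth was 18820005 to 20980233 reads in listed genes per library, and the members' counts ran from 137 reads (PAM16 in shRNA2 B) to 34290 reads (HSPD1 in control B). TAZ (gene ID 6901) stood at 1.47 and 2.13 RPKM with shRNA2, 4.02 and 4.10 RPKM with shRNA1, and 11.3 and 11.9 RPKM in the control. All 10 markers fixed for a myeloid leukaemia line were listed, with KIT near 0 (0.00953 to 0.149 RPKM over the 6 libraries). Their summed level was 4657 and 3899 RPKM with shRNA2, 5706 and 5170 RPKM with shRNA1, and 1170 and 1020 RPKM in the control. Most of that sum was the lysozyme gene LYZ, at 4221 and 3494 RPKM with shRNA2, 5236 and 4742 RPKM with shRNA1, and 786 and 676 RPKM in the control. The 10 markers did not move one way. With shRNA2, LYZ, PTPRC and HOXA9 passed as higher and MPO as lower, and with shRNA1 CD33, LYZ, PTPRC, CSF1R, CSF3R and HOXA9 passed as higher and MPO as lower. SPI1 and CEBPA passed with neither hairpin, and KIT was under the filter. The part of these markers in the results below was not tested. Of markers of other cell types, 1 of 3 T cell genes was listed (CD3D, at most 0.981 RPKM). None of the 3 erythroid, 3 epithelial and 3 fibroblast genes was listed.

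With shRNA2, 11 of the 36 members fell against the control (30.6%), where 7.61% of the 10659 genes tested fell, and 25 members did not pass. The 11 were TOMM20, TOMM34, TIMM9, TIMM21, TIMM50, PMPCA, HSPD1, TRAP1, LONP1, CLPP and HTRA2. Without shRNA2 B, 3 members passed as lower (8.33%, against 3.7% of all genes), and without control A 6 (16.7%, against 7.21%). With shRNA1, 3 members fell (8.33%): TOMM34, TIMM9 and HTRA2. That share is near the 8.58% of the 10613 genes tested that fell. Since the members were chosen with earlier results of these data known, their shares are descriptions and give no independent support. The test was limma on log2(RPKM + 0.5), adjusted over all genes tested with a threshold of 0.05, and both comparisons share the 2 control libraries. No member rose in either comparison, where 8.12% of all genes rose with shRNA2 and 9.99% with shRNA1. At an unadjusted p under 0.05, 16 members were lower with shRNA2 (44.4%, against 16.1% of all genes) and 0 higher (16.7% of all genes). With shRNA1, 11 were lower at that p (30.6%, against 17.3%) and 2 higher (TOMM20 and CLPX, 5.56%, against 18.8%). On reads recovered from the RPKM, limma-voom called 13 lower with shRNA2 (36.1%, against 8.1%) and 5 with shRNA1 (13.9%, against 9.18%). It called 0 higher in either, where 9.28% and 12% of all genes rose. The split with shRNA1 depended on the scaling. With quantile normalization 3 members fell (8.33%, against 9.54% of all genes) and 1 rose (TOMM20, 2.78%, against 10.4%). With the length trend removed 5 fell (13.9%, against 8.95%) and 2 rose (CLPX and TOMM22, 5.56%, against 10.7%). In bulk libraries, fewer cells of a type and less RNA per cell cannot be told apart.

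The members' median log2 fold change was -0.41 with shRNA2 and -0.22 with shRNA1, where the median over all genes tested was 0.00 in each. Below 0 were 33 members with shRNA2 (91.7%, against 50.5% of all genes) and 30 members with shRNA1 (83.3%, against 50% of all genes). With each library's trend over gene length taken out, the median was -0.29 with shRNA2, with 31 members below 0, and -0.10 with shRNA1, with 23 members below 0. Both knockdown libraries lay below both control libraries for 27 members with shRNA2 (75%, against 31.1% of all genes) and for 23 members with shRNA1 (63.9%, against 32.5% of all genes). For a member that passed, such an order adds no support to its call, since both come from the same libraries. The authors' deposited table calls 24 members lower with shRNA2 at an adjusted p under 0.05, where it calls 18.9% of all genes lower. For shRNA1 the authors' deposited table calls 13 members lower, where it calls 17.1% of all genes lower, and 2 members higher. In either direction it calls 4662 of the 13002 genes for shRNA1, and the share called higher was not computed.

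**Figure D1:**
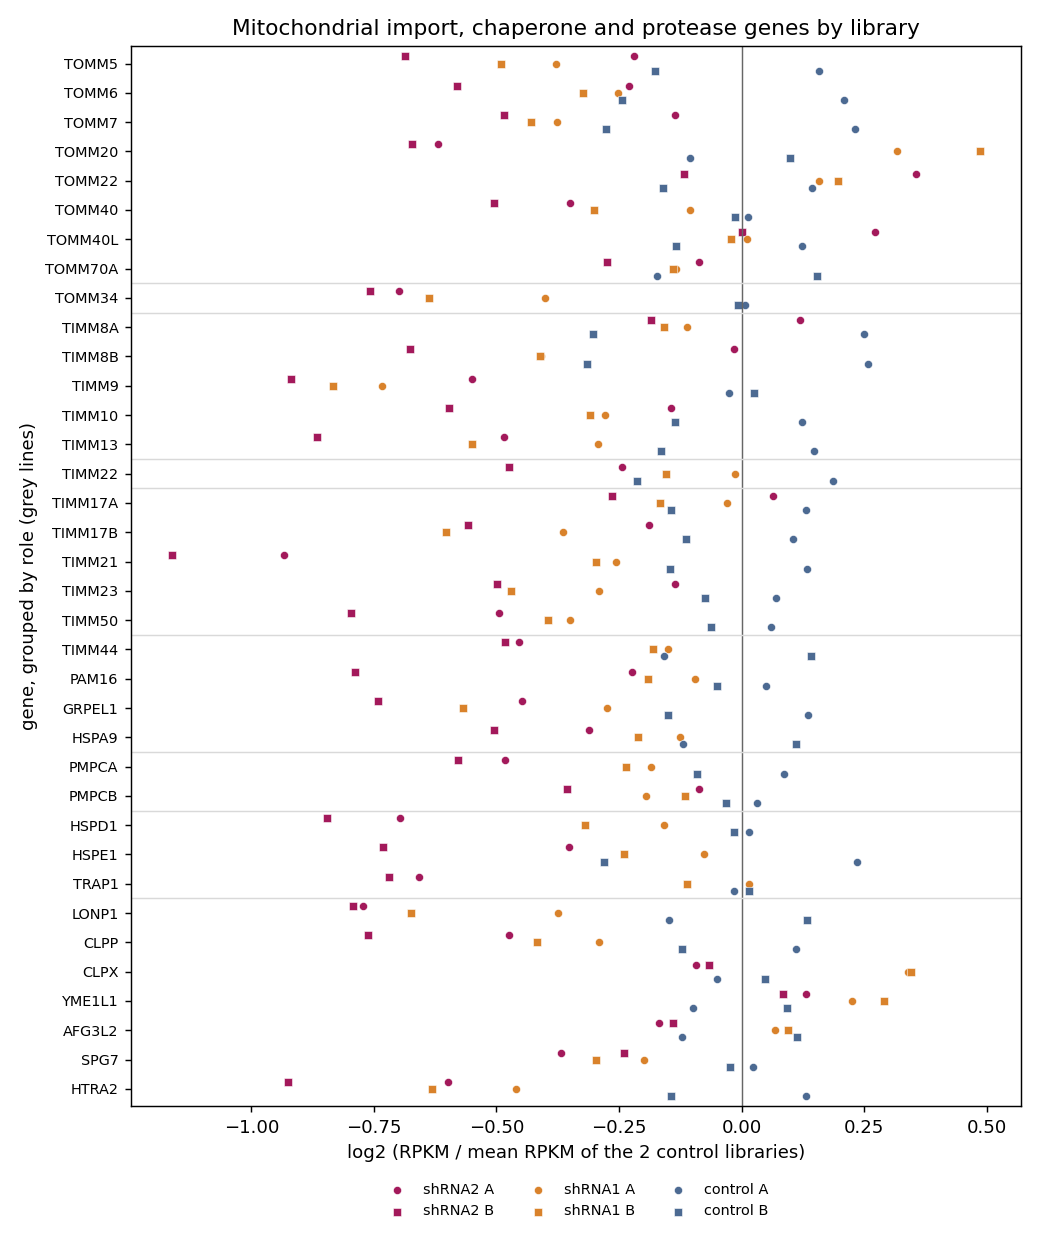
Each row is a gene and each point a library, plotted as log2 of its RPKM over the mean RPKM of the 2 control libraries, with shRNA2 on top, shRNA1 in the middle and the control at the bottom of each row; circles are libraries A and squares libraries B. Points of shRNA2 lie to the left of both control points for 27 of the 36 genes, with TIMM21 farthest out.

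**Figure D2:**
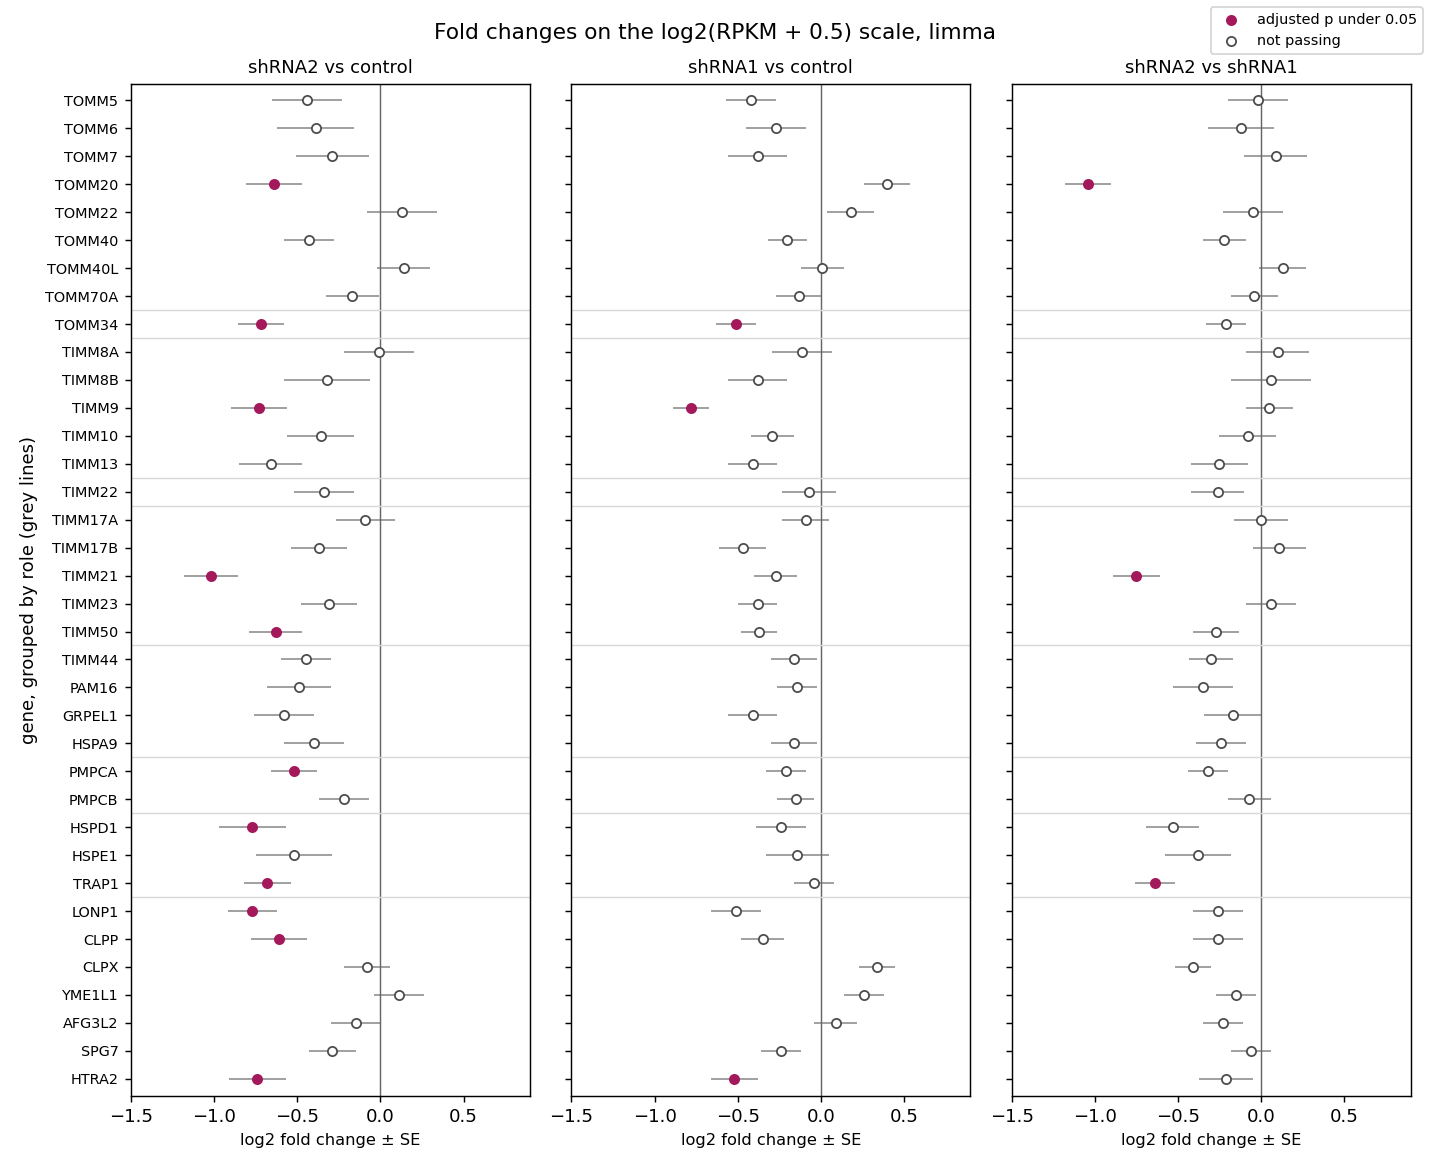
Log2 fold change ± SE of every member in the 3 comparisons (limma on log2(RPKM + 0.5), 2 libraries per group); filled points passed an adjusted p of 0.05. The left panel has 11 filled points, the middle panel 3 and the right panel 3, all below 0.

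The letters upstream of some of these genes are given as a description. Levels of MYC, which binds the E-box CACGTG, and of ATF4 are given below, and the part of either in the members' values was not tested. In the RefSeq windows of 250 bases before the start (build GRCh38.p14, 31 of the 36 members matched), both strands were searched for 4 motifs. CACGTG stood in 5 of the 31 windows (16.1%) and in 6.49% of the 27305 windows of all genes. Those 27305 windows were not limited to genes with values here and were not matched to the members in base composition. CGCATGCG, the core bound by the transcription factor NRF1 that drives mitochondrial genes, stood in 2 (TOMM7 and TIMM9, 6.45%, against 1.86% of all windows). TGATGNAA, the core of elements bound by ATF4, stood in 2 (TIMM22 and PMPCB, against 3.19% of all windows). GAANNTTC, a core of heat shock elements, stood in 0 of 31, against 5.85% of all windows. No window held 2 different motifs. A match describes the letters only. The 5 windows with an E-box belong to TOMM20, HSPA9, HSPD1, HSPE1 and LONP1, which holds it at 2 places, and HSPD1 and HSPE1 share 1 site. Of these 5 genes, TOMM20, HSPD1 and LONP1 fell with shRNA2, HSPA9 and HSPE1 passed with neither hairpin, and none passed with shRNA1. The sites are given 5′ to 3′ on the gene's own strand, with the motif in capitals.
TOMM20 (chr1:235128988-235129017, minus strand): aaagtccgtggtCACGTGcaaattcccgac
HSPA9 (chr5:138575403-138575432, minus strand): cgcccctcacccCACGTGgttggaggtttc
HSPD1 (chr2:197500345-197500374, minus strand): cggccctggcgaCACGTGaaaaaatcaccc
LONP1, far site (chr19:5720341-5720370, minus strand): ctcacagccttcCACGTGaccggaaaaggc
LONP1, near site (chr19:5720178-5720207, minus strand): cgcgccgggcgtCACGTGcgtttcgcggcg
TIMM9, NRF1 core (chr14:58427642-58427671, minus strand): gagacacaacaCGCATGCGcgccaagaaac
The LONP1 sites end 206 and 43 bases before its start, the TOMM20 site 162 bases, and the TIMM9 core 121 bases. HSPD1 and HSPE1 point away from each other, with starts 105 bases apart, and the whole stretch between them, on the plus strand and with its E-box in capitals, is the following.
HSPD1 to HSPE1 (chr2:197500275-197500378, plus strand): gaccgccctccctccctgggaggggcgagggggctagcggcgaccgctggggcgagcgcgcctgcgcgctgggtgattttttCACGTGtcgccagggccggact

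Beside the counts by role that follow, 7.61% of all genes tested fell with shRNA2 and 8.58% with shRNA1. The roles are small, and no count by role was tested. In the TOM complex, 1 of 8 genes fell with shRNA2, 7 did not pass, and none of the 8 passed with shRNA1. TOMM20 (gene ID 9804, chromosome 1), the receptor for targeting sequences, stood at 138 and 133 RPKM with shRNA2, 264 and 297 RPKM with shRNA1, and 197 and 227 RPKM in the control. The shRNA2 libraries were the lowest, the shRNA1 libraries the highest, and no groups overlapped. TOMM20 fell with shRNA2 by 0.64 in log2 units (SE 0.17, adjusted p = 0.04), a call lost without any 1 of the 4 libraries (0.0649 to 0.175) and with quantile normalization (0.0726). With shRNA1 its log2 fold change was 0.40 (SE 0.14, adjusted p = 0.0848). GENCODE release 29 names 4 pseudogenes of TOMM20, so its reads could be shared with near-identical copies.

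No other gene of the complex passed with either hairpin. TOMM40, which forms the channel, stood at 73.0 and 65.6 RPKM with shRNA2, 86.5 and 75.6 RPKM with shRNA1, and 94.0 and 92.2 RPKM in the control. All its knockdown libraries were below both control libraries, but the log2 fold changes of -0.43 with shRNA2 (adjusted p = 0.0907) and -0.20 with shRNA1 (adjusted p = 0.267) did not pass. The small subunits TOMM5, TOMM6 and TOMM7, which help to assemble and stabilise the channel, had log2 fold changes of -0.29 to -0.44 with shRNA2 and -0.27 to -0.42 with shRNA1. None of these passed. The receptors TOMM22 and TOMM70A and the TOMM40 paralogue TOMM40L lay between -0.17 and 0.14 with shRNA2 and between -0.13 and 0.18 with shRNA1.

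TOMM34 (gene ID 10953, chromosome 20), a cytosolic co-chaperone that binds precursors together with HSP70 and HSP90, fell with both hairpins. It stood at 29.6 and 28.4 RPKM with shRNA2, 36.4 and 30.9 RPKM with shRNA1, and 48.3 and 47.8 RPKM in the control. The 4 knockdown libraries were all below both control libraries. The fall was 0.72 in log2 units with shRNA2 (SE 0.14, adjusted p = 0.0155) and kept its call without each library in turn. With shRNA1 the log2 fold change was -0.51 (SE 0.12, adjusted p = 0.0315), a call lost without shRNA1 A (0.0733) or shRNA1 B (0.325).

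**Figure D3:**
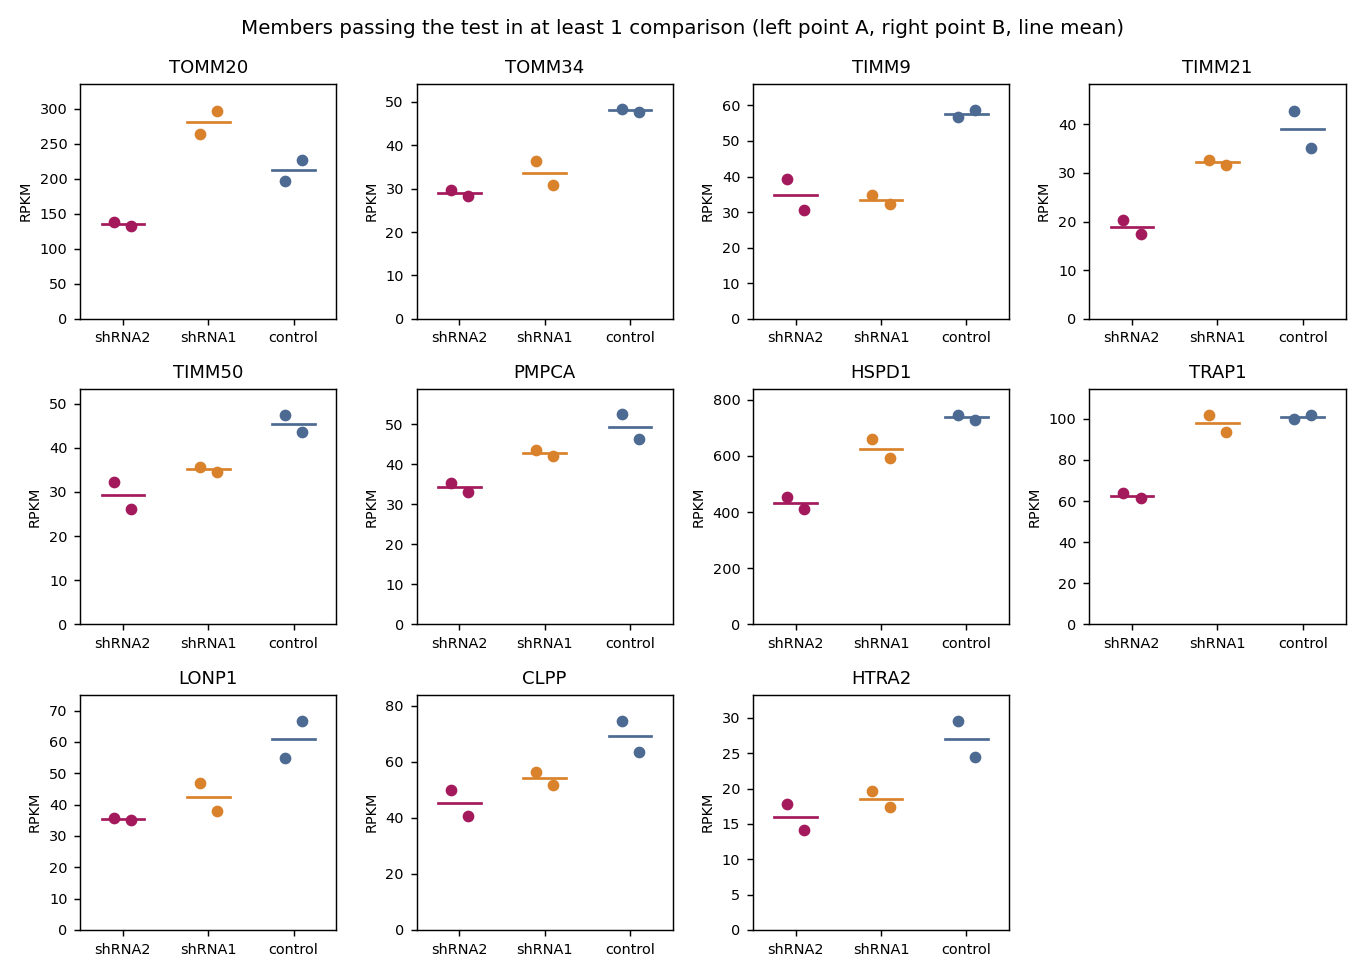
RPKM of the 11 members that passed the test in at least 1 comparison, by group; points are libraries A (left) and B (right), lines are the means, and each axis starts at 0. The shRNA2 points lie below both control points for all 11 genes, as for 31.1% of all genes tested. That order adds no support, since the 11 were picked by the test on these same libraries. TOMM20 is the 1 gene of the 11 whose shRNA1 points both lie above both control points.

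Of the 5 small TIM chaperones, 1 fell with each hairpin, TIMM9 in both comparisons. TIMM9 (gene ID 26520, chromosome 14) forms with TIMM10 the hexamer that carries membrane proteins between the membranes. It stood at 39.4 and 30.5 RPKM with shRNA2, 34.7 and 32.4 RPKM with shRNA1, and 56.7 and 58.7 RPKM in the control. All 4 knockdown libraries were below both control libraries, and the 2 hairpins overlapped. The log2 fold change was -0.73 with shRNA2 (SE 0.17, adjusted p = 0.0282) and -0.78 with shRNA1 (SE 0.11, adjusted p = 0.00712). The calls were lost without shRNA2 B (0.126) and without shRNA1 B (0.0551). After removal of each library's trend over gene length, the fold changes were -0.53 and -0.52. KIAA0586 shares exon bases with TIMM9 on the opposite strand, and its own log2 fold change was 0.38 with shRNA2 (adjusted p = 0.185) and 0.65 with shRNA1 (adjusted p = 0.0298). The strand setting of the counting is not given in the sources used here, so reads of such pairs may be mixed. GENCODE also names 3 pseudogenes of TIMM9. In all, 15 members share exon bases with another listed gene and 12 have named pseudogenes in GENCODE.

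The partner TIMM10 stood at 86.4 and 63.1 RPKM with shRNA2, 78.7 and 77.0 RPKM with shRNA1, and 104 and 86.9 RPKM in the control. Its fold changes of -0.36 and -0.29 did not pass. The RPKM ratio of TIMM9 to TIMM10 was 0.456 and 0.483 with shRNA2, 0.441 and 0.420 with shRNA1, and 0.543 and 0.676 in the control. The ratio was thus lower in every knockdown library than in both control libraries. The ratios are given as values and were not tested, since an exact two-sided permutation test of 2 libraries against 2 gives no p below 0.333. Trends over gene length were not removed from them, and no share over other gene pairs was computed. TIMM13, which pairs with TIMM8A or TIMM8B, had log2 fold changes of -0.66 with shRNA2 (adjusted p = 0.0508) and -0.41 with shRNA1 (adjusted p = 0.0991). The ratio of TIMM8A, the gene mutated in deafness-dystonia syndrome, to TIMM13 was 0.364 and 0.384 with shRNA2, 0.271 and 0.315 with shRNA1, and 0.258 and 0.218 in the control. TIMM22, the channel of the carrier translocase, stood at 18.4 and 15.7 RPKM with shRNA2, 21.6 and 19.6 RPKM with shRNA1, and 24.8 and 18.8 RPKM in the control, and did not pass in either comparison.

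In the TIM23 translocase, 2 of 5 genes fell with shRNA2 and 0 of 5 with shRNA1. TIMM21 (gene ID 29090, chromosome 18), which links the translocase to the TOM complex and to the respiratory chain, stood at 20.4 and 17.4 RPKM with shRNA2, 32.6 and 31.7 RPKM with shRNA1, and 42.7 and 35.2 RPKM in the control. The groups were in order with no overlap, shRNA2 lowest and the control highest. Its fall of 1.02 in log2 units with shRNA2 (SE 0.16, adjusted p = 0.00889) kept its call without each library in turn (at most 0.0147). With shRNA1 the log2 fold change was -0.27 (SE 0.13, adjusted p = 0.182).

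TIMM50 (gene ID 92609, chromosome 19), the receptor of the translocase on the inner membrane, stood at 32.3 and 26.2 RPKM with shRNA2, 35.7 and 34.6 RPKM with shRNA1, and 47.4 and 43.6 RPKM in the control. The gene fell with shRNA2 by 0.63 in log2 units (SE 0.16, adjusted p = 0.0364), a call lost without shRNA2 B (0.176), without control A (0.0741) and with no variance trend (0.0504). With shRNA1 its log2 fold change was -0.37 (SE 0.11, adjusted p = 0.063). The channel subunit TIMM23 had fold changes of -0.31 and -0.38, which did not pass, and is uncertain because TIMM23B is nearly identical. Of the paralogues TIMM17A and TIMM17B, alternative subunits of the channel, TIMM17A had fold changes of -0.09 with both hairpins, and TIMM17B -0.37 with shRNA2 and -0.47 with shRNA1 (adjusted p = 0.19 and 0.0516). Their RPKM ratio, TIMM17A to TIMM17B, was 2.04 and 2.10 with shRNA2, 2.16 and 2.32 with shRNA1, and 1.75 and 1.68 in the control, so the ratio was higher in every knockdown library.

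None of the 4 genes of the import motor passed in either comparison, though all 4 had negative fold changes in both. GRPEL1 (gene ID 80273, chromosome 4), the nucleotide exchange factor of mortalin, stood at 88.7 and 72.4 RPKM with shRNA2, 100 and 81.6 RPKM with shRNA1, and 133 and 109 RPKM in the control. Its 4 knockdown libraries were below both control libraries, with log2 fold changes of -0.58 (adjusted p = 0.0647) and -0.41 (adjusted p = 0.104). HSPA9, the mortalin gene, stood at 198 and 173 RPKM with shRNA2, 225 and 212 RPKM with shRNA1, and 226 and 265 RPKM in the control. Its fold changes were -0.40 (adjusted p = 0.165) and -0.16 (adjusted p = 0.418). TIMM44, which tethers mortalin to the channel, had -0.45 and -0.16, and PAM16, a J-like subunit, -0.49 and -0.14. At an unadjusted p under 0.05, 3 of the 4 were lower with shRNA2 and 1 with shRNA1, where 16.1% and 17.3% of all genes were. Of the 4, limma-voom called 1 and 0 lower, where it called 8.1% and 9.18% of all genes lower.

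The peptidase that cuts off targeting sequences has 2 subunits. PMPCA (gene ID 23203, chromosome 9), which binds the sequence, stood at 35.4 and 33.1 RPKM with shRNA2, 43.5 and 42.0 RPKM with shRNA1, and 52.5 and 46.4 RPKM in the control, in that order with no overlap. Its level fell with shRNA2 by 0.52 in log2 units (SE 0.14, adjusted p = 0.0484), the closest to the threshold of the 11 that fell. That call was lost without shRNA2 A (0.0866), shRNA2 B (0.193) or control A (0.179), with no filter (0.0506), with quantile normalization (0.0506) and with no variance trend (0.0656). The catalytic subunit PMPCB had fold changes of -0.22 and -0.15 and did not pass.

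Of the 3 matrix chaperones, 2 fell with shRNA2 and 0 with shRNA1. HSPD1 (gene ID 3329, chromosome 2), the HSP60 chaperonin, was the most abundant member in the control, and stood at 455 and 410 RPKM with shRNA2, 660 and 591 RPKM with shRNA1, and 745 and 729 RPKM in the control. The shRNA2 libraries were lowest, and both hairpins were below the control. It fell with shRNA2 by 0.77 in log2 units (SE 0.20, adjusted p = 0.0404), a call lost without any 1 of the 4 libraries (0.107 to 0.237) and with no filter (0.0529). With shRNA1 the log2 fold change was -0.24 (SE 0.15, adjusted p = 0.286).

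HSPE1, the HSP10 lid of the chaperonin, whose start faces that of HSPD1 across the stretch printed above, stood at 195 and 150 RPKM with shRNA2, 236 and 211 RPKM with shRNA1, and 293 and 205 RPKM in the control. Its control libraries were far apart, and its fold changes of -0.52 (adjusted p = 0.163) and -0.14 (adjusted p = 0.631) did not pass. The ratio of HSPD1 to HSPE1 was 2.34 and 2.74 with shRNA2, 2.80 and 2.81 with shRNA1, and 2.54 and 3.56 in the control, so the groups overlapped. GENCODE names 17 pseudogenes of HSPD1 and 26 of HSPE1, which makes both levels uncertain.

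TRAP1 (gene ID 10131, chromosome 16), the mitochondrial HSP90, stood at 64.0 and 61.3 RPKM with shRNA2, 102 and 93.5 RPKM with shRNA1, and 99.9 and 102 RPKM in the control. The shRNA1 and control libraries overlapped and the shRNA2 libraries lay below all of them. TRAP1 fell with shRNA2 by 0.68 in log2 units (SE 0.14, adjusted p = 0.0221), a call lost without shRNA2 B (0.0758). With shRNA1 the log2 fold change was -0.04 (SE 0.12, adjusted p = 0.806).

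Of the 7 proteases, 3 fell with shRNA2 and 1 with shRNA1. LONP1 (gene ID 9361, chromosome 19), the matrix protease that degrades oxidised proteins, stood at 35.6 and 35.1 RPKM with shRNA2, 46.9 and 38.1 RPKM with shRNA1, and 54.9 and 66.7 RPKM in the control. The groups were in order, with no overlap. Its fall of 0.77 in log2 units with shRNA2 (SE 0.15, adjusted p = 0.0186) kept its call without each library in turn (at most 0.0424). With shRNA1 the log2 fold change was -0.51 (SE 0.15, adjusted p = 0.0566). The ribosomal protein gene RPL36 shares exon bases with LONP1 on the opposite strand and had fold changes of -0.48 (adjusted p = 0.286) and -0.64 (adjusted p = 0.0696).

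CLPP (gene ID 8192, chromosome 19), the peptidase subunit of the ClpXP protease, stood at 49.8 and 40.8 RPKM with shRNA2, 56.5 and 51.8 RPKM with shRNA1, and 74.7 and 63.6 RPKM in the control. Its 4 knockdown libraries were below both control libraries. CLPP fell with shRNA2 by 0.61 in log2 units (SE 0.17, adjusted p = 0.0467), a call lost without shRNA2 B (0.212), without control A (0.148), with no filter (0.052) and with no variance trend (0.0607). With shRNA1 the log2 fold change was -0.35 (SE 0.13, adjusted p = 0.1).

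CLPX, the unfoldase that feeds CLPP, stood at 27.3 and 27.8 RPKM with shRNA2, 36.8 and 37.0 RPKM with shRNA1, and 28.1 and 30.1 RPKM in the control. The shRNA1 libraries were the highest, at a log2 fold change of 0.34 against the control (SE 0.11, adjusted p = 0.0764), and the shRNA2 fold change was -0.08 (adjusted p = 0.725). The ratio of CLPP to CLPX was 1.82 and 1.46 with shRNA2, 1.54 and 1.40 with shRNA1, and 2.66 and 2.11 in the control, so it was lower in every knockdown library than in either control library.

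HTRA2 (gene ID 27429, chromosome 2), a protease of the space between the membranes that can promote apoptosis once released, stood at 17.8 and 14.2 RPKM with shRNA2, 19.6 and 17.4 RPKM with shRNA1, and 29.5 and 24.4 RPKM in the control. All 4 knockdown libraries were below both control libraries. HTRA2 fell with shRNA2 by 0.74 in log2 units (SE 0.17, adjusted p = 0.0296) and with shRNA1 by 0.52 (SE 0.14, adjusted p = 0.0407). The shRNA2 call was lost without shRNA2 B (0.119) or control A (0.0514), and the shRNA1 call without shRNA1 A (0.0987), without shRNA1 B (0.29) and with no variance trend (0.0568). AUP1 and LOXL3 share exon bases with HTRA2 on the opposite strand, so reads may be mixed. AUP1 had fold changes of -0.23 with shRNA2 (adjusted p = 0.379) and -0.21 with shRNA1 (adjusted p = 0.273). LOXL3 rose with shRNA1 by 0.62 (adjusted p = 0.047) and was not tested for shRNA2 against the control. The inner membrane proteases YME1L1, AFG3L2 and SPG7 had fold changes of -0.29 to 0.11 with shRNA2 and -0.24 to 0.26 with shRNA1, and none passed. The ratio of AFG3L2 to its partner SPG7 was 4.28 and 3.99 with shRNA2, 4.46 and 4.88 with shRNA1, and 3.35 and 4.08 in the control.

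**Figure D4:**
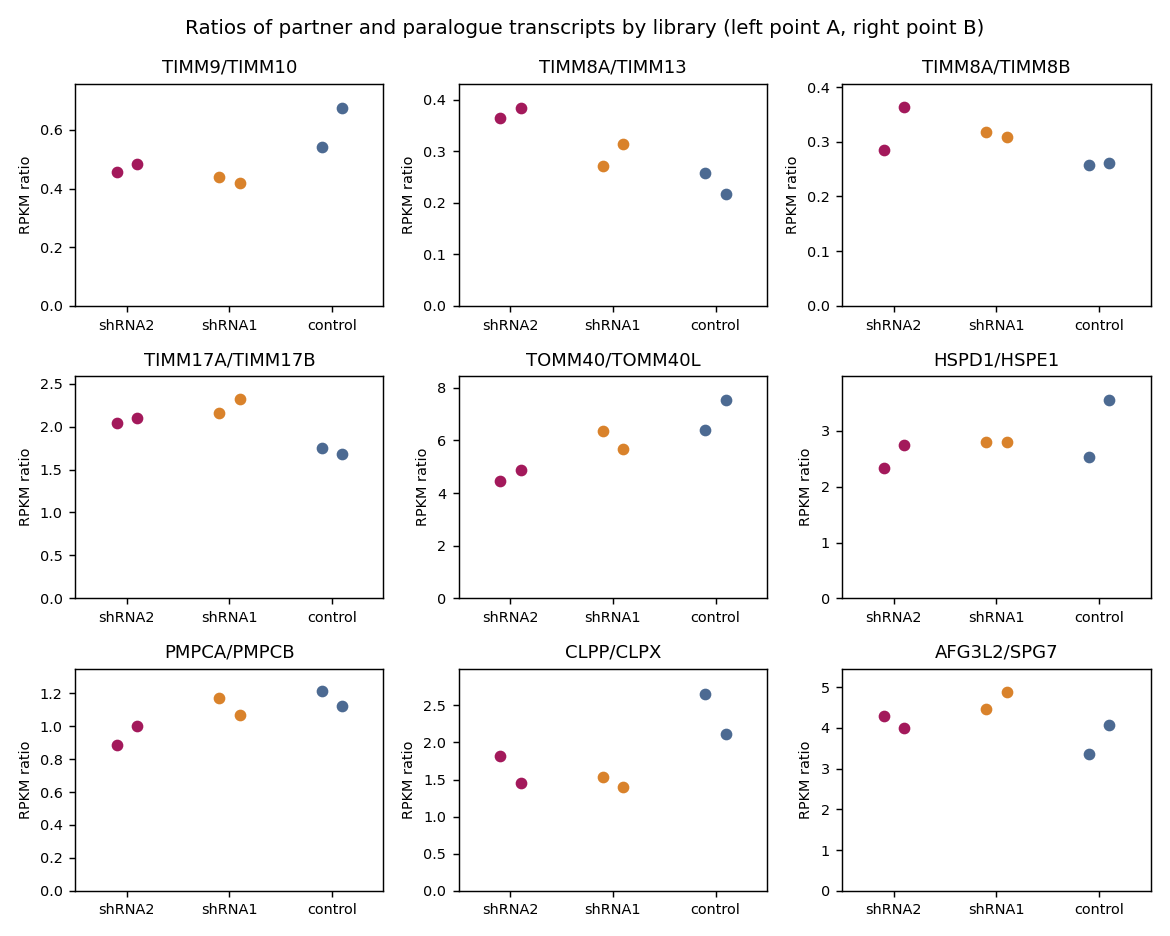
RPKM ratios of 9 partner or paralogue pairs by group, with axes from 0; points are libraries A (left) and B (right). The ratios TIMM9/TIMM10, CLPP/CLPX and TOMM40/TOMM40L are lower, and TIMM8A/TIMM13, TIMM8A/TIMM8B and TIMM17A/TIMM17B higher, in each of the 4 knockdown libraries than in either control library. Ratios come from RPKM as deposited, with no trend over gene length removed, and partners can differ in length (CLPP 1151 bases, CLPX 2351 bases). The part of length in the ratios was not tested, and no share over other gene pairs was computed.

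Set directly against shRNA1, shRNA2 had 3 members lower (8.33%, against 6.1% of the 10660 genes tested) and 0 higher, where 4.78% of all genes were higher. At an unadjusted p under 0.05, 6 members were lower (16.7%, against 14.3% of all genes) and 0 higher (11.9% of all genes). limma-voom called 5 lower (13.9%, against 6.86% of all genes) and 0 higher. TOMM20 was lower under shRNA2 by 1.04 in log2 units (SE 0.14, adjusted p = 0.00386), TIMM21 by 0.75 (SE 0.14, adjusted p = 0.0128) and TRAP1 by 0.64 (SE 0.12, adjusted p = 0.0138). The TOMM20 call was lost without shRNA1 B (0.0696). The TIMM21 and TRAP1 calls were lost without shRNA2 B (0.0697 and 0.0614), without shRNA1 A (0.118 and 0.155) and without shRNA1 B (0.111 and 0.107). HSPD1 had a difference of -0.53 (SE 0.16, adjusted p = 0.066) and CLPX one of -0.41 (SE 0.11, adjusted p = 0.0513). TIMM9, TOMM34 and HTRA2, the 3 members that fell with each hairpin, differed between the hairpins by 0.05, -0.21 and -0.21 (adjusted p = 0.869, 0.333 and 0.431). Both shRNA2 libraries lay below both shRNA1 libraries for 18 members (50%, against 31.2% of all genes). The members' median was -0.21, against -0.01 over all genes.

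Gene length and library letter moved with part of these values. The 13 members shorter than 1500 bases (584 to 1442) had a median log2 fold change of -0.37 with shRNA2 and -0.35 with shRNA1. After removal of each library's length trend these became -0.17 and -0.08. The 23 longer members (1504 to 4398 bases) had -0.45 with shRNA2 and -0.16 with shRNA1, and -0.44 and -0.14 after that removal. Library A was above library B for 33 of the 36 members with shRNA2, 30 with shRNA1 and 26 in the control. The median log2 difference of A minus B over members was 0.28, 0.09 and 0.16, against 0.03, 0.01 and -0.01 over all genes. With the length trend removed, 14 members fell with shRNA2 (38.9%, against 11.2% of all genes) and none rose (12.3% of all genes), and with shRNA1 5 fell (13.9%, against 8.95%) and 2 rose (5.56%, against 10.7%). The part of the library letter in these results was not tested, and the bound of 1500 bases was chosen after the data were seen.

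**Figure D5:**
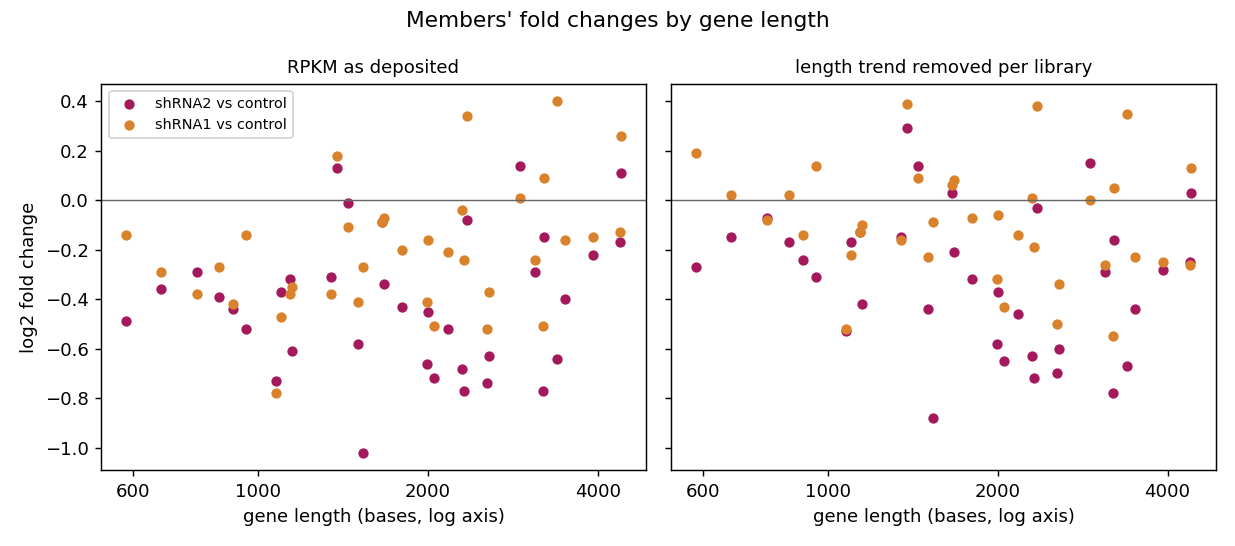
Log2 fold change of each member against gene length on a log axis, for shRNA2 and shRNA1 against the control, from RPKM as deposited (left) and after removal of each library's length trend (right). In the right panel the members under 1500 bases lie nearer to 0, and those over 1500 bases have about the same medians as in the left panel.

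Other genes of the same pathways were taken from lists. Beside their counts, 7.61% of all genes tested fell and 8.12% rose with shRNA2, and 8.58% fell and 9.99% rose with shRNA1. The lists are short, and no count of theirs was tested. Of 22 other import and assembly genes, 0 passed with shRNA2 (median log2 fold change -0.22), and with shRNA1 (median -0.16) 2 fell and 1 rose. DNAJC19, a J-protein of the import motor whose loss causes a cardiomyopathy resembling that of tafazzin loss, stood at 40.1 and 27.4 RPKM with shRNA2, 28.3 and 29.5 RPKM with shRNA1, and 52.2 and 49.5 RPKM in the control. All 4 knockdown libraries were below both control libraries. It fell with shRNA1 by 0.80 in log2 units (SE 0.11, adjusted p = 0.00632), and its fold change with shRNA2 was -0.61 (adjusted p = 0.072). MTX2, of the outer membrane sorting machinery, fell with shRNA1 by 0.69 (adjusted p = 0.0178), but without shRNA1 B it did not pass (0.151). TIMM10B rose with shRNA1 by 0.47 (adjusted p = 0.0433), a call lost without shRNA1 A (0.3) or shRNA1 B (0.202), with no filter (0.0514), with quantile normalization (0.0512) and with no variance trend (0.0547). GRPEL2, a paralogue of GRPEL1, had log2 fold changes of -0.81 with shRNA2 (adjusted p = 0.05 after rounding, not passing) and -0.71 with shRNA1 (0.0585). HSCB, a J-protein of iron-sulphur cluster assembly, had -0.51 (0.11) and -0.53 (0.0557).

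Of 15 other proteases and quality control genes, 2 fell with shRNA2, and 1 fell and 1 rose with shRNA1. The inner membrane peptidase IMMP2L fell with both, by 0.62 (adjusted p = 0.0429) and 0.54 (adjusted p = 0.0498). Its shRNA2 call was lost without shRNA2 A (0.0835), shRNA2 B (0.192) or control A (0.13), with no filter (0.0616), with no variance trend (0.0539) and with limma-voom (0.0625). Its shRNA1 call was lost without shRNA1 A (0.157), shRNA1 B (0.317) or control A (0.0573), with a pseudocount of 1 (0.0505), with no filter (0.065), with the length trend removed (0.0788), with no variance trend (0.0551) and with limma-voom (0.0626). XPNPEP3, an aminopeptidase, fell with shRNA2 by 0.81 (adjusted p = 0.0294) and NRD1, a metalloprotease, rose with shRNA1 by 0.48 (adjusted p = 0.042). The XPNPEP3 call was lost without shRNA2 A (0.0756), shRNA2 B (0.0697) or control B (0.0549), and the NRD1 call without shRNA1 A (0.167) or shRNA1 B (0.254) and with no variance trend (0.0618). The prohibitin genes PHB and PHB2, whose proteins form a ring scaffold in the inner membrane, did not pass, with log2 fold changes of -0.59 and -0.51 with shRNA2 (adjusted p = 0.0901 and 0.0898) and -0.49 and -0.40 with shRNA1 (0.0664 and 0.06). IMMP1L, the partner of IMMP2L, had -0.54 (0.147) and -0.72 (0.079). Of 11 cytosolic chaperones that deliver precursors, 0 passed in any of the 3 comparisons, with medians of -0.06 with shRNA2 and 0.12 with shRNA1. HSP90AB1, the constitutive cytosolic HSP90, had log2 fold changes of -0.72 with shRNA2 (adjusted p = 0.081) and -0.45 with shRNA1 (0.11). UBQLN2 had 0.35 and 0.29, DNAJA2 -0.29 and -0.19, and BAG6 0.18 and 0.19, at adjusted p of 0.142 to 0.429.

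Of 10 regulators tied to mitochondrial stress in mammals, 3 fell with shRNA2 and 4 with shRNA1, and none rose (medians -0.44 and -0.38). Over all genes tested, 7.61% and 8.58% fell, and 8.12% and 9.99% rose. ATF4, the main transcription factor of the integrated stress response, stood at 186 and 166 RPKM with shRNA2, 244 and 226 RPKM with shRNA1, and 451 and 602 RPKM in the control. ATF5, tied to the mitochondrial unfolded protein response, stood at 28.5 and 31.8 RPKM with shRNA2, 45.3 and 45.1 RPKM with shRNA1, and 97.3 and 181 RPKM in the control. Control B was the higher control library for both. ATF4 had log2 fold changes of -1.56 with shRNA2 (SE 0.21, adjusted p = 0.00568) and -1.15 with shRNA1 (SE 0.17, adjusted p = 0.00768), the second lost without shRNA1 B (0.053). ATF5 had -2.12 (SE 0.27, adjusted p = 0.00499) and -1.54 (SE 0.26, adjusted p = 0.0104), and without control B -1.68 and -1.10.

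MYC, which drives growth genes through E-boxes, stood at 57.4 and 68.7 RPKM with shRNA2, 138 and 127 RPKM with shRNA1, and 203 and 240 RPKM in the control. The groups were in order, with no overlap. It fell with shRNA2 by 1.81 (SE 0.17, adjusted p = 0.00245) and with shRNA1 by 0.73 (SE 0.14, adjusted p = 0.0147), and its level under shRNA2 was below that under shRNA1, with a difference of -1.07 (adjusted p = 0.00428). The last 2 calls were lost without shRNA1 A (0.0646 and 0.0617) or shRNA1 B (0.149 and 0.0519). CEBPB fell with shRNA1 by 0.83 (adjusted p = 0.0246), but without shRNA1 B it did not pass (0.125). HSF1, the heat shock regulator, was lower under shRNA2, with a difference from shRNA1 of -0.49 (adjusted p = 0.0291), a call lost without any 1 of the 4 knockdown libraries (0.0935 to 0.231). TIMM10B, XPNPEP3, NRD1 and HSF1 were named after their values were seen.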

How the data were processed

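Per the labels, total RNA of 6 OCI-AML2 libraries was sequenced from a directional library kit. Per the submitters' processing notes, the work used genome build hg19 with edgeR 3.8.6, DESeq 1.18.0, HTSeq 0.6.1p2, TopHat2 2.0.11 and Trim Galore 0.4.0, with no role stated. The deposited tables, 1 per hairpin, hold RPKM of each library and, per the file headers, the authors' log2 fold change, log2 CPM, likelihood-ratio score, p-value and adjusted p-value for 13004 rows. Neither the authors' filter on genes nor the strand setting is given in the sources used here. The control columns were identical in both tables. Dropping 2 repeated rows left 13002 genes, and 21 symbols stored as dates were named through their gene ID. RPKM steps gave whole reads for 13001 genes (99.99%, within 0.01 reads) and gene lengths. These reads served limma-voom as an alternative.

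RPKM was taken as log2(RPKM + 0.5), which understates changes of low genes, and genes averaging under 1 RPKM were left out. limma 3.58.1 (R 4.3.3) with a variance trend, in two-sided tests adjusted by Benjamini-Hochberg over all genes tested, compared each hairpin with the control on 4 libraries, and the hairpins with each other on all 6. It was also run on simulated data with independent noise, which lacked the length trend and the shared shift of libraries A and B seen here. That run does not test the calls. Named members are those called in a comparison and, for roles with none, the member with the smallest larger p of both control comparisons, with the rest by range. Up to 4 genes per other list were named by the same p. The members and lists were chosen with earlier results of these data known. Alternatives covered pseudocount, filter, scaling, gene length, variance model, limma-voom, block, the libraries fitted and each library left out. Counting intervals were not used.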

Additional observations from a re-analysis of the deposited data

Results flagged for a closer look

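Only 1 kind of result met the rules for a closer look, a tested difference between the 2 hairpins, and no group had enough libraries for a check on single outlying samples. TOMM20 was lower with shRNA2 than with shRNA1, with a log2 difference of -1.04 (SE 0.14, limma adjusted p = 0.00386). TIMM21 differed by -0.75 (SE 0.14, adjusted p = 0.0128) and TRAP1 by -0.64 (SE 0.12, adjusted p = 0.0138). In each of the 3 genes both shRNA2 libraries were below both shRNA1 libraries. That adds no support, since the genes were picked by the test on these same libraries, and 31.2% of all genes tested show it. The 3 are 8.33% of the members, against 6.1% of all genes tested, and each call was lost without shRNA1 B.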

How the results depend on the processing

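Of 1872 values of single members under the alternatives, 1709 kept their side of the threshold, 123 passed where the main test did not, and 40 lost their call. No called value reversed, and 59 of the values called under neither setting changed sign. TIMM13 with shRNA2 did not pass in the main test, nor did LONP1 and TIMM17B with shRNA1. These passed as lower with upper quartile scaling, robust empirical Bayes and limma-voom. Members called, shRNA1 against control, were 3 (all lower, 8.33%, against 8.58% of all genes). They became 5 with upper quartile scaling, robust empirical Bayes or limma-voom. All 5 were lower (13.9%, against 9.23%, 9.19% and 9.18% of all genes). With the gene length trend removed they became 7, and the members' median was -0.10. Of these, 5 were lower (13.9%, against 8.95%) and 2 higher (5.56%, against 10.7%). The authors' deposited table calls 15 members and 4662 genes for shRNA1 in either direction. Of the 15, 13 were lower (36.1%, against 17.1% of all genes) and 2 higher. For shRNA2 it calls 24 members and 5044 genes. All 24 were lower (66.7%, against 18.9% of all genes). With all 6 libraries in 1 fit, 2584 genes passed for shRNA2. Between the hairpins, removing the length trend gave 8 members and 1798 genes, and limma-voom 5 members. All of these members were lower (22.2%, against 8.95% of all genes, and 13.9%, against 6.86%). Leaving out 1 library gave 3 to 11 members, 864 to 1934 genes and medians of -0.57 to -0.27 for shRNA2, 0 to 21 members, 500 to 4447 genes and medians of -0.33 to -0.14 for shRNA1, and 0 to 4 members, 162 to 1628 genes and medians of -0.30 to -0.10 between the hairpins. The lowest counts came without shRNA2 B for shRNA2 and without shRNA1 B for the other 2 comparisons, and the 21 without control B. A group left with 1 library is assumed to vary like the other. The cause was not tested.

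With the letter as a replicate block, 26 members and 4170 genes passed for shRNA2, 15 members and 3780 genes for shRNA1, and 6 members and 2396 genes between the hairpins. For shRNA2 all 26 were lower (72.2%, against 20.3% of all genes). For shRNA1 13 were lower (36.1%, against 17.6%) and 2 higher (5.56%, against 18%). Between the hairpins all 6 were lower (16.7%, against 12.1%). Differences of A minus B correlated across 10660 genes at r = 0.423 (shRNA2 and control), 0.26 (shRNA1 and control) and 0.367 (shRNA2 and shRNA1). With 2 pairs per comparison and no label that ties the letters, the numbers were not taken as pairs. Under the block all 4 import motor genes passed as lower for shRNA2 (20.3% of all genes did), and GRPEL1 for shRNA1 (17.6% of all genes did). Each member had 137 or more reads in each library; the share of the spread that depth gives was not tested.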
